A study of Mus musculus with 24 samples.

Results

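The inflammasome genes described here are Nlrp3, Nlrc4, Aim2, Pycard, Casp1, Casp4, Gsdmd, Il1b and Il18, chosen by name as sensors, adaptor, caspases, pore former and cytokine products of the pathway, and they were 9 of 21368 genes with a named probe on the arrays. Their levels were measured on 1-colour Agilent arrays in 6 female mice, with 1 array for each of the 4 organs sampled (liver, brain, heart and skeletal muscle) from every mouse. In 3 mice, labelled RAP1 MUT and called KI here, both copies of Rap1 (gene symbol Terf2ip) carried a CRISPR/Cas9 point mutation that replaces an isoleucine with arginine and abolishes binding to the telomere protein TRF2, and 3 mice were WT. The line was backcrossed 4 times to C57BL/6N. KI mice A (15 months), B (15 months) and C (14 months) and WT mice D (15 months), E (15 months) and F (14 months) received no treatment named in the labels. The mutation is in the germline, so every cell type of a tissue carries it. A level below is on a log2 scale on which 0 is the signal at the array's own 75th percentile, and levels of different genes are not compared because each probe binds with its own strength.

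An inflammasome is a protein platform that assembles in the cytosol when a sensor such as NLRP3, NLRC4 or AIM2 detects damage, bacterial protein or DNA. The adaptor PYCARD (also called ASC) joins the sensor to caspase-1, which matures interleukin-1 beta and interleukin-18 and cuts gasdermin D, whose fragment opens pores in the cell membrane. Caspase-4 of the mouse (also called caspase-11) binds bacterial lipopolysaccharide directly and cuts gasdermin D as well. Macrophages, including the Kupffer cells of the liver and the microglia of the brain, and neutrophils are well known sources of these proteins. RAP1 away from telomeres is known to act on NF-kappaB signalling, which induces Il1b and Nlrp3.

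The tissue labels were borne out by cell markers, with mean levels of 6 hepatocyte genes between 8.42 and 9.28 in the livers, of 5 neuronal genes between 5.04 and 5.27 in the brains, of 5 cardiomyocyte genes between 5.01 and 7.66 in the hearts and of 5 muscle fibre genes between 9.12 and 9.62 in the muscles. The neuronal mean was between -3.89 and -1.07 outside brain. Its member Snap25 was not specific, at 6.33 to 6.69 in the brains, 5.78 to 6.81 in the hearts and 5.12 to 6.29 in the muscles. In 3 libraries, all of KI mice, transcripts of another tissue were high as well. The brain of KI mouse C had a hepatocyte mean of 4.92, against -2.82 to -1.05 in the other 5 brains. The liver of KI mouse C had a muscle fibre mean of 1.09, against -6.39 to -5.26 in the other 5 livers. The muscle of KI mouse B had a mean of -0.55 over 5 epithelial genes, against -5.32 to -4.66 in the other 5 muscles. Neutrophil markers, with a mean of 2 in the muscles of KI mouse B and WT mouse D, were not part of this count. Signal at the 75th percentile ranged from 312.5 to 2519.4 over the 24 arrays, and no spot was saturated. Terf2ip, which carries the mutation but whose transcript the mutation does not remove, was well above background on all arrays and did not pass the test in any tissue, with a KI minus WT difference of -0.33 ± 0.21 (SE) for the livers, -0.13 ± 0.18 (SE) for the brains, -0.15 ± 0.15 (SE) for the hearts and -0.07 ± 0.16 (SE) for the muscles.

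Pycard, Casp1, Casp4 and Gsdmd were well above background on all 24 arrays, Il18 on 23, Nlrp3 on 21, Il1b on 18, Aim2 on 13 and Nlrc4 on 10. The sensors Aim2 and Nlrc4 were thus detected on the fewest arrays. Arrays also differed in how dim a level could be detected. The lowest level well above background was -6.94 to -5.56 on the brain arrays and -5.8 to -4.93 on the heart arrays. It was -6.05 to -4.32 on the liver arrays and -5.38 to -4.13 on the muscle arrays. A count of detected arrays therefore depends on the array as well as on the tissue. Nlrp3 and Casp4 had 2 probes each, of which the brighter was used, and the remaining members had 1 probe. The probes of Gsdmd and Il1b were spotted 10 times on each array, and the SD between those spots within an array was at most 0.17 for Gsdmd and 0.43 for Il1b.

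The promoters of Casp1, Casp4 and Pycard are shown because, among the members tested, these were higher in every KI liver than in every WT liver. That held for 12.2% of all genes tested in liver. It also held for Nlrc4, which was too dim to be tested, and its promoter, with no match to the motifs below, is not shown. The promoter of Il1b is shown as that of the classic product of the pathway. The sequences are from RefSeq on GRCm38.p6, from 250 bases before to 50 bases after the annotated start, and 8 of the 9 members matched that table. Gsdmd did not match. Casp1 and Casp4 are neighbours on chromosome 9, both read from the plus strand. Casp1 lies at chr9:5298267-5298566, Casp4 at chr9:5308599-5308898, both on the plus strand, and Pycard at chr7:127993818-127994117 and Il1b at chr2:129371090-129371389, both on the minus strand. Capitals mark matches on either strand to 4 motifs, the TATA box TATAAA, the core GAGGAA bound by the myeloid factor PU.1, the core of the interferon-stimulated response element (GAAA, any 2 bases, GAAA), and the NF-kappaB motif.
Casp1: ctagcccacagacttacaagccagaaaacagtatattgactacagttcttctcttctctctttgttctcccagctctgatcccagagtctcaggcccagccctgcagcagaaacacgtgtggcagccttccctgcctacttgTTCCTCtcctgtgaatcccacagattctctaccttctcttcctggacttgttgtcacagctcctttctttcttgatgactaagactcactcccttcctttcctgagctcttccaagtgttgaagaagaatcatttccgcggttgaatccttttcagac
Casp4: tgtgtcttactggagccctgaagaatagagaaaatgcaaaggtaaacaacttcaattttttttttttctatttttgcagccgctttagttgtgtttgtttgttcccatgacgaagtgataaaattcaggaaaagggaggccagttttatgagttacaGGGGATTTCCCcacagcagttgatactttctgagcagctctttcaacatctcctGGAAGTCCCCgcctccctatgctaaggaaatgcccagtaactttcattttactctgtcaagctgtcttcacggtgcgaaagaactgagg
Pycard: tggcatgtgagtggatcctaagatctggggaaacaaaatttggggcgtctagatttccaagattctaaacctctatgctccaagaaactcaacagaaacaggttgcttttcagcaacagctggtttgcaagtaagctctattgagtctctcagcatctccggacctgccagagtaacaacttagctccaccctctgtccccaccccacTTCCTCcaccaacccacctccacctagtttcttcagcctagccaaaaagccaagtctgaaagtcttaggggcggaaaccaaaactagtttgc
Il1b: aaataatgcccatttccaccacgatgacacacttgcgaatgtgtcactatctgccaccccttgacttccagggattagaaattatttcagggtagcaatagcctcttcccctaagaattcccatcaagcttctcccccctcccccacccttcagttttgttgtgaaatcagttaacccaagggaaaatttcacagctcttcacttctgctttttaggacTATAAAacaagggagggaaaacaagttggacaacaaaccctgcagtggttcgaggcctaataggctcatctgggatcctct
Casp1 held a PU.1 core whose first base was at -108 relative to the start, and Pycard held 1 at -42, both on the opposite strand. Casp4 held NF-kappaB matches at 2 places, overlapping ones at -93 and -92 and another at -39. Il1b held a TATA box at -31 on its own strand. Of 32851 promoters of the same length in the table, 28.3% held the PU.1 core, 8.46% the NF-kappaB motif, 13.6% the TATA box and 3.44% the interferon core. Over the 8 members with a promoter, 4 held the PU.1 core, 2 the NF-kappaB motif, 2 the TATA box and 0 the interferon core. A member was counted if any of its promoters matched, while the shares over all promoters are per promoter, so the units are unlike. Nlrp3 and Casp4 had 2 promoters each, of which 1 is shown for Casp4. Nlrp3 held the PU.1 core in 1 promoter and the NF-kappaB motif in the other. These are matches of letters, not shown binding sites.

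Among the sensors, Nlrp3, which responds to many forms of cell damage, had mean levels of -3.83 ± 0.45 (SD, n = 6) in heart, -4.05 ± 0.25 (SD, n = 6) in muscle, -4.38 ± 0.41 (SD, n = 6) in liver and -4.49 ± 0.22 (SD, n = 6) in brain. Heart was above liver (liver minus heart -0.55, adjusted p = 0.0194) and above brain (brain minus heart -0.65, adjusted p = 0.00607). The step from heart to liver did not pass under quantile normalization (adjusted p = 0.359), with normexp (adjusted p = 0.487), in the WT arrays alone (adjusted p = 0.591) or with the slide as a block (adjusted p = 0.216), and that from heart to brain did not pass in the WT arrays alone (adjusted p = 0.276). The differences between heart and muscle, muscle and liver, and liver and brain did not pass the test (adjusted p = 0.353, 0.139 and 0.623). Liver did pass above brain with normexp (0.57, adjusted p = 0.00153) and with the dimmer Nlrp3 probe (1.40, adjusted p = 0.000378), and liver minus muscle was -0.53 with normexp (adjusted p = 0.00308). The order of the tissues for Nlrp3 was not fixed, since normexp background correction put muscle above heart (heart minus muscle -0.41) and the dimmer Nlrp3 probe put liver above heart by 0.36. Aim2, a sensor of DNA in the cytosol, was well above background in 6 of 6 hearts and 6 of 6 brains, in 1 liver (WT mouse D) and in no muscle. Its mean level was -4.12 ± 0.46 (SD, n = 6) in heart and -5.15 ± 0.18 (SD, n = 6) in brain, and the heart and brain ranges did not overlap (brain minus heart -1.03, adjusted p = 0.00129), though the difference did not pass under quantile normalization (adjusted p = 0.0778). Against muscle, the heart level was at least 1.28-fold higher (adjusted p = 3.46e-06), a direction that turned to -0.15 with normexp. Detection of Aim2 also followed the array. It was -4.8 in the muscle of KI mouse B, not well above background, and -5.43 in the brain of WT mouse F, well above background. Nlrc4, which senses bacterial flagellin through NAIP partners, was well above background in 4 hearts, 3 livers, 2 brains and 1 muscle and was never so on all 3 arrays of a group, so it was not tested. The highest Nlrc4 levels were -3.61 in the heart of KI mouse B and -3.72 in the muscle of KI mouse A.

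Pycard, the adaptor, was highest in heart, with a mean level of 1.90 ± 0.07 (SD, n = 6), then in liver with 0.68 ± 0.14 (SD, n = 6), brain with 0.25 ± 0.27 (SD, n = 6) and muscle with -0.55 ± 0.52 (SD, n = 6). The hearts did not overlap with any other tissue. Each step in that order passed the test, with heart above liver (liver minus heart -1.21, adjusted p = 7.46e-06), liver above brain by 0.43 (adjusted p = 0.0369) and brain above muscle by 0.80 (adjusted p = 0.000569). The step from liver to brain no longer passed under quantile normalization (adjusted p = 0.069) or in the WT arrays alone (adjusted p = 0.0808). Neither of the lower steps passed with the slide as a block (adjusted p = 0.0547 and 0.0602).

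Casp1, the caspase that the platform activates, had mean levels of 0.52 ± 0.16 (SD, n = 6) in heart, 0.11 ± 0.42 (SD, n = 6) in liver, -0.43 ± 0.35 (SD, n = 6) in brain and -0.88 ± 0.47 (SD, n = 6) in muscle. The difference between heart and liver did not pass the test (adjusted p = 0.0668), though it did under quantile normalization (adjusted p = 0.0442) and in the WT arrays alone (adjusted p = 0.0221). Liver was above brain by 0.54 (adjusted p = 0.0155) and brain above muscle by 0.45 (adjusted p = 0.0387), but in the WT arrays alone neither step passed (adjusted p = 0.414 and 0.0592). The step from brain to muscle also did not pass under quantile normalization (adjusted p = 0.0507), with normexp (adjusted p = 0.0633) or with the slide as a block (adjusted p = 0.168). Casp4, the lipopolysaccharide sensor, was lowest in brain and highest in heart. Its mean level was 0.83 ± 0.32 (SD, n = 6) in heart, -0.13 ± 0.45 (SD, n = 6) in muscle, -0.22 ± 0.39 (SD, n = 6) in liver and -2.83 ± 0.21 (SD, n = 6) in brain. Every brain was below every array of the 3 remaining tissues, 12.6-fold below heart on average (adjusted p = 3.56e-12), while the difference between liver and muscle did not pass the test (-0.09, adjusted p = 0.684). Heart was also above liver for Casp4 (liver minus heart -1.05, adjusted p = 0.000105, no overlap) and above muscle by 0.96 (adjusted p = 0.000399, ranges overlapping). The second Casp4 probe gave a mean level of 0.59 ± 0.30 (SD, n = 6) in heart and -3.05 ± 0.24 (SD, n = 6) in brain.

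Gsdmd, the pore former, was highest in liver, with a mean level of 2.90 ± 0.27 (SD, n = 6), and lowest in brain, with -2.26 ± 0.26 (SD, n = 6). Heart had a mean level of 0.04 ± 0.11 (SD, n = 6) and muscle of -1.42 ± 0.52 (SD, n = 6). Liver was 35.6-fold above brain (adjusted p = 5.54e-15) and 7.26-fold above heart (adjusted p = 6.89e-11), and the livers did not overlap with any other tissue. Muscle was above brain (brain minus muscle -0.84, adjusted p = 0.000539), with overlapping ranges. Of the products, Il1b, the fever-inducing cytokine, followed a like order, with -1.06 ± 0.59 (SD, n = 6) in liver, -3.17 ± 0.64 (SD, n = 6) in heart and -5.15 ± 0.30 (SD, n = 6) in brain, while muscle was well above background in 1 of 6 arrays (KI mouse B, level -4.23). Liver was 4.31-fold above heart (adjusted p = 0.000154) and 17.0-fold above brain (adjusted p = 2.63e-08) for Il1b. Il18, a cytokine that epithelial cells store as a precursor, set liver and brain apart from both muscle tissues, with mean levels of 2.25 ± 0.20 (SD, n = 6) in liver, 1.40 ± 0.09 (SD, n = 6) in brain, -2.34 ± 0.50 (SD, n = 6) in heart and -2.83 ± 0.82 (SD, n = 6) in muscle. Brain was 13.4-fold above heart for Il18 (adjusted p = 5.31e-10), the opposite of the order for Casp4 and Gsdmd, in which brain was lowest. The step from liver to brain was 0.85 (adjusted p = 0.0108) and did not pass under quantile normalization (0.59, adjusted p = 0.0748). It also did not pass in the WT arrays alone (adjusted p = 0.131) or with the slide as a block (adjusted p = 0.0837). The step from heart to muscle did not pass (adjusted p = 0.145).

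**Figure D1:**
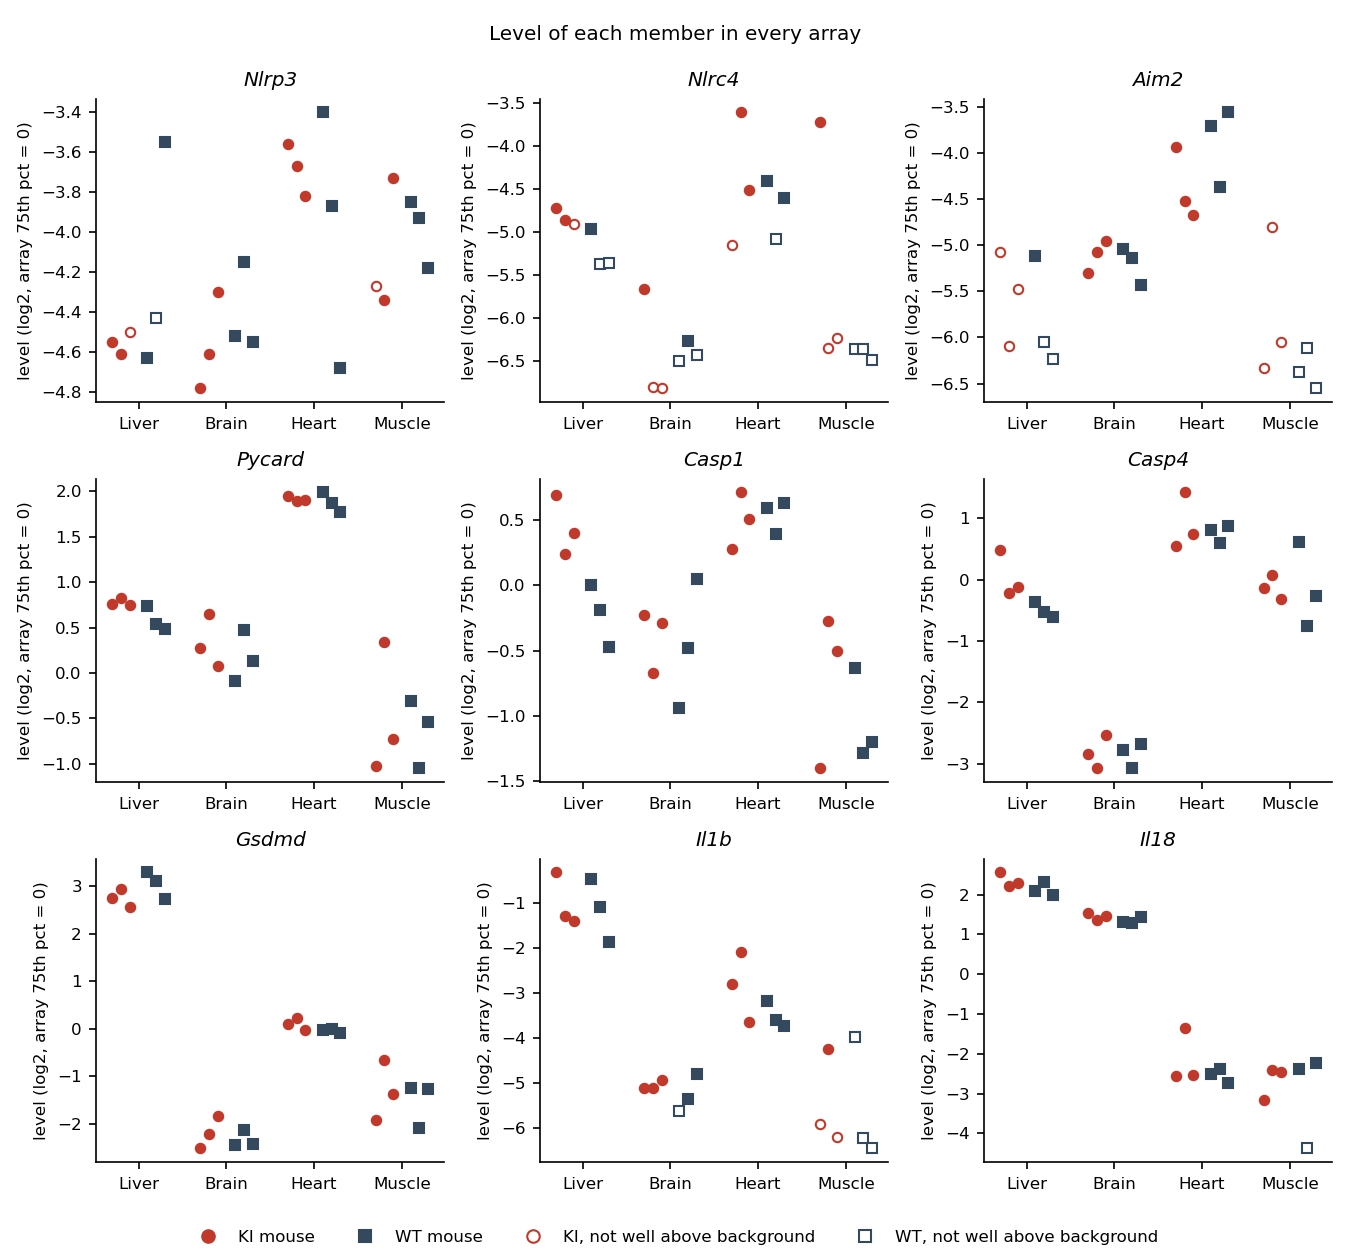
Level of each member (y axis, log2, 0 at the array's 75th percentile) in every array, by tissue (x axis), with circles for KI mice A to C and squares for WT mice D to F from left to right, and open symbols where the probe was not well above background. Casp4 was between -3.07 and -2.53 in the brains and at -0.75 or higher elsewhere, and Gsdmd and Il1b were highest in liver. The KI livers lay above the WT livers for Casp1, Casp4 and Pycard, as for 12.2% of all genes tested in liver.

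Over the pairs of tissues, 8 members were tested. Liver was above brain for 6 members and below for 0, where 45.7% and 39% of all 16864 genes tested passed in those directions. Liver was above heart for 3 and below for 4 (35.4% and 39.6% of all genes), and above muscle for 5 and below for 0 (35.6% and 44.4%). Brain was above heart for 1, Il18, and below for 7 (35.5% and 44.2%), and above muscle for 4 and below for 2 (36% and 46.6%). Heart was above muscle for 6 and below for 0 (29.9% and 35.5%). Most genes differed between tissues, so these counts describe the members and do not set them apart. The counts against muscle include Aim2, for brain and heart, which was well above background in 0 of 6 muscles. They include Il1b, for liver and heart, which was so in 1 of 6 muscles. With normexp, heart minus muscle for Il1b was 0.17 and did not pass by limma (adjusted p = 0.503). The median difference of all genes between a pair of tissues lay between -0.26 and 0.18, between -0.13 and 0.08 under quantile normalization and between -0.49 and 0.29 under normexp, and tissue differences are relative to it. Arrays were printed several to a glass slide. Livers shared no slide with hearts or muscles, and brains shared none with muscles, so those pairs have no comparison within a slide. Within a slide, liver was above brain for Gsdmd by 5.37, Il1b by 4.30 and Casp4 by 2.59 (6 livers, 2 brains), brain minus heart was -3.68 for Casp4 and 3.58 for Il18 (4 brains, 4 hearts), and heart was above muscle for Pycard by 2.39 (2 hearts, 6 muscles).

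In liver, 3 of the 6 members tested were higher in every KI mouse than in every WT mouse, as were 12.2% of all genes tested there. The untested Nlrc4 was so too, with 3 of 6 livers well above background. None of the 6 passed the test over all genes. Casp1 levels were 0.69, 0.24 and 0.40 in the KI livers (mice A to C in that order, as throughout) and 0.00, -0.19 and -0.47 in the WT livers (mice D to F). Thus the lowest KI liver was above the highest WT liver. The KI minus WT difference was 0.67 ± 0.18 (SE), a 1.59-fold higher mean, with a 95% interval from 0.23 to 1.10 (adjusted p = 0.369 by limma with Benjamini-Hochberg adjustment). Casp4 levels were 0.49, -0.22 and -0.12 in the KI livers and -0.36, -0.52 and -0.61 in the WT livers. The KI liver of mouse A stood highest and the groups again did not overlap. The difference was 0.55 ± 0.21 (SE), with an interval from 0.05 to 1.05 (adjusted p = 0.409), and the second Casp4 probe gave 0.63 (adjusted p = 0.402). Pycard levels were 0.76, 0.83 and 0.75 in the KI livers and 0.74, 0.54 and 0.48 in the WT livers. The gap between the groups was narrow for Pycard, and the difference was 0.19 ± 0.12 (SE), with an interval from -0.10 to 0.49 (adjusted p = 0.52). Without the liver of KI mouse C, in which muscle transcripts were high, the differences were 0.69 for Casp1, 0.63 for Casp4 and 0.21 for Pycard. Without the liver of KI mouse A, in which Casp4 was highest, they were 0.54 for Casp1, 0.33 for Casp4 and 0.21 for Pycard.

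The pore former and the products did not separate the genotypes in liver. Gsdmd levels were 2.75, 2.94 and 2.56 in the KI livers and 3.29, 3.1 and 2.72 in the WT livers, a difference of -0.29 ± 0.19 (SE, adjusted p = 0.531). Gsdmd thus had the opposite sign to the caspases that cut it, with overlapping groups. Il1b levels were -0.31, -1.28 and -1.38 in the KI livers and -0.45, -1.08 and -1.86 in the WT livers, a difference of 0.14 ± 0.43 (SE, adjusted p = 0.9). Mouse A of the KI group and mouse D of the WT group had the highest Il1b levels, and the difference turned to -0.20 without mouse A and to -0.23 without WT mouse F. Il18 levels were 2.56, 2.23 and 2.30 in the KI livers and 2.10, 2.32 and 1.98 in the WT livers, a difference of 0.23 ± 0.15 (SE, adjusted p = 0.528). The 3 sensors were too dim in liver to be tested. Nlrc4 levels were -4.72, -4.86 and -4.91 in the KI livers and -4.97, -5.37 and -5.36 in the WT livers, with 2 KI livers and 1 WT liver well above background. The Nlrc4 groups also did not overlap in muscle, with KI higher, where 1 of 6 arrays was well above background.

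Of the 6 members tested in liver, 0 passed at an adjusted p under 0.05 and 2, Casp1 and Casp4, had an unadjusted p under 0.05. Over all 14092 genes tested in liver, 0% passed after adjustment and 11.7% had an unadjusted p under 0.05. The groups did not overlap, with KI higher, for 3 of the 6 members and for 12.2% of all genes, and with KI lower for 0 members and for 7.5% of all genes. The mean was higher in KI for 5 of the 6 members, against 55.9% of all genes. The median difference was 0.21 over the 6 members tested and 0.04 over all genes.

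Most markers of immune cells had higher means in the same KI livers, without passing the test. The mean level of the 10 macrophage and microglia markers was 2.44, 1.97 and 2.07 in the KI livers and 1.70, 1.51 and 1.58 in the WT livers. All 10 were well above background on every liver array, 9 had a higher mean in KI (55.9% of all genes) and 8 did not overlap between the groups (12.2% of all genes, KI higher). Itgam went the other way (-0.31 ± 0.88, SE). It was 5.78 in KI mouse A and 5.54 in WT mouse F, against 2.97 to 3.93 in the remaining livers, and raises the list mean of mice A and F. Csf1r, the receptor on which macrophages depend, was higher by 0.69 ± 0.12 (SE, adjusted p = 0.358). The mean of the 4 Kupffer cell markers was 2.19, 2.58 and 2.75 in the KI livers and 2.06, 1.55 and 1.72 in the WT livers, with all 4 higher in KI. For the 7 neutrophil markers on the array the mean was between -2.02 and -1.62 in the KI livers and between -2.78 and -2.15 in the WT livers. In the liver of WT mouse E, the lowest, 4 of these 7 were well above background, and 6 were in that of KI mouse C. Both means therefore hold values near background. The 6 hepatocyte markers also had higher means in KI, with list means overlapping at 8.96 to 9.16 in the KI livers and 8.42 to 9.28 in the WT livers. None of the markers in these lists passed after adjustment. The part of these cells in the Casp1, Casp4 and Pycard levels was not tested, and in whole tissue more cells of a type and more RNA per cell cannot be told apart.

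**Figure D2:**
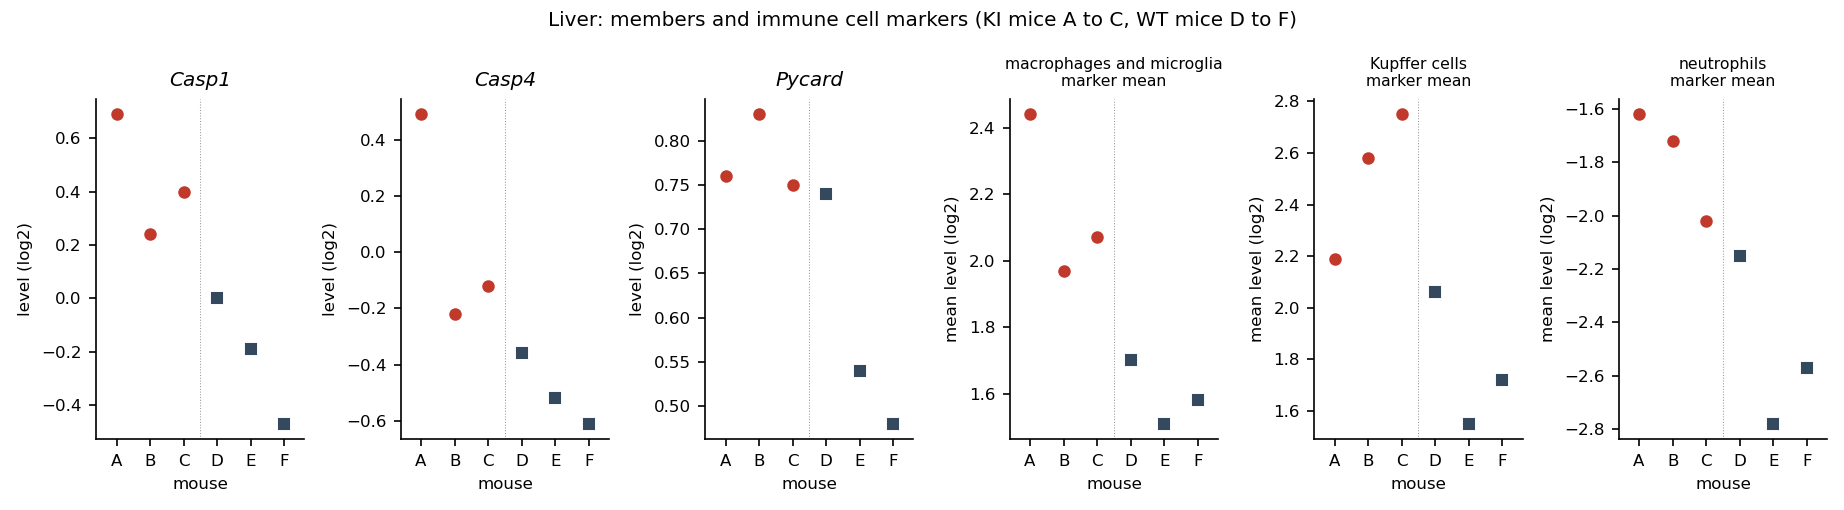
Levels of Casp1, Casp4 and Pycard and mean levels of 10 macrophage and microglia, 4 Kupffer cell and 7 neutrophil markers in the liver of each mouse (x axis, KI mice A to C as circles, WT mice D to F as squares), all on a log2 y axis with 0 at the array's 75th percentile. In each of the 6 panels the 3 KI livers lie above the 3 WT livers, by the least for Pycard, where KI mouse C was at 0.75 and WT mouse D at 0.74. Of the 7 neutrophil markers, 4 were well above background in the liver of WT mouse E.

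In brain, the levels of the members were close in both genotypes. Casp1 levels were -0.23, -0.67 and -0.29 in the KI brains and -0.94, -0.48 and 0.05 in the WT brains. The WT brains spanned the KI brains, and the KI minus WT difference was 0.06 ± 0.27 (SE), with an interval from -0.58 to 0.69. Within the slides it was 0.71 for 1 brain of each genotype and -0.27 for 2 of each, so the sign differed between slides. Il18 levels were 1.53, 1.36 and 1.47 in the KI brains and 1.32, 1.29 and 1.43 in the WT brains, a difference of 0.11 ± 0.12 (SE). Il1b levels were -5.10, -5.11 and -4.92 in the KI brains and -5.62, -5.34 and -4.80 in the WT brains, where the array of mouse D was not well above background, a difference of 0.21 ± 0.22 (SE). Nlrp3 differed by -0.16 ± 0.18 (SE), Aim2 by 0.10 ± 0.16 (SE) and Pycard by 0.16 ± 0.21 (SE). Gsdmd was highest in the brain of KI mouse C, at -1.83, against -2.51 to -2.13 in the other 5 brains, and the difference of 0.15 ± 0.20 (SE) was -0.02 without that library, in which liver transcripts were high. The Casp4 difference of 0.03 ± 0.19 (SE) was -0.11 without it. All 8 members tested had an adjusted p of 1 by limma, and 0 had an unadjusted p under 0.05, against 0% and 0.79% of 16073 genes. In 0 of the 8 were all KI brains above all WT brains (1.28% of all genes), and 7 of the 8 had a higher mean in KI (41% of all genes). The 4 microglia markers had means between 1.01 and 1.18 in the KI brains and between 1.02 and 1.11 in the WT brains.

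In heart, the largest differences were those of Il1b and Aim2, and neither passed the test. Il1b levels were -2.80, -2.08 and -3.64 in the KI hearts and -3.17, -3.59 and -3.72 in the WT hearts. The hearts of KI mice A and B were above all WT hearts and that of mouse C was below 2 of them. The difference was 0.65 ± 0.38 (SE), with an interval from -0.26 to 1.56 (adjusted p = 0.971), and it was 0.27 without KI mouse B and 1.05 without KI mouse C. The heart of KI mouse B was also highest for Il18, at -1.35 against -2.73 to -2.38 in the other 5 hearts, and for Casp4, at 1.42 against 0.54 to 0.88. Without it the differences fell from 0.39 to -0.0045 for Il18 and from 0.14 to -0.12 for Casp4. In that heart the mean of the 4 Kupffer cell markers was -0.87, against -2.99 to -2.30 in the other 5, and that of the 10 macrophage and microglia markers was 2.12, against 1.57 to 1.85. Nppa, a natriuretic peptide gene of the atria, stood at 9.03 there, against 4.49 to 7.69 in the other 5. The part of these transcripts in the levels of that heart was not tested.

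Aim2 was lower on average in the KI hearts, with overlapping groups. Its levels were -3.93, -4.52 and -4.67 in the KI hearts and -3.71, -4.37 and -3.56 in the WT hearts, a difference of -0.49 ± 0.28 (SE), which was -0.19 within slide 2 and -1.11 within slide 3, and ranged from -0.74 to -0.33 when each mouse was left out. Pycard was between 1.77 and 1.99 in all 6 hearts, and its difference was 0.04 ± 0.12 (SE), with an interval from -0.25 to 0.33. Casp1 differed by -0.04 ± 0.16 (SE), Gsdmd by 0.13 ± 0.12 (SE) and Nlrp3 by 0.30 ± 0.31 (SE). The Nlrp3 difference was -0.05 without the heart of WT mouse F, the dimmest at -4.68. Of the 8 members tested, 0 passed after adjustment and 0 had an unadjusted p under 0.05, against 0% and 1.64% of 14931 genes. Non-overlapping groups with KI higher were found for 0 of the 8 members and 1.8% of all genes, and a higher mean in KI for 6 of the 8 and 38.2% of all genes.

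In muscle, the members varied more between mice than between genotypes. Casp1 levels were -1.40, -0.27 and -0.50 in the KI muscles and -0.63, -1.28 and -1.20 in the WT muscles, a difference of 0.31 ± 0.34 (SE). Pycard levels were -1.02, 0.34 and -0.73 in the KI muscles and -0.31, -1.05 and -0.54 in the WT muscles, a difference of 0.16 ± 0.38 (SE). Gsdmd levels were -1.92, -0.65 and -1.38 in the KI muscles and -1.24, -2.08 and -1.26 in the WT muscles, a difference of 0.21 ± 0.38 (SE). All 3 genes were highest in the muscle of KI mouse B and were lowest or next to lowest in those of KI mouse A and WT mouse E. Without KI mouse B, in whose muscle epithelial transcripts were high, the differences were 0.09 for Casp1, -0.24 for Pycard and -0.12 for Gsdmd. Il18 levels were -3.15, -2.40 and -2.45 in the KI muscles and -2.37, -4.37 and -2.23 in the WT muscles. The muscle of WT mouse E, not well above background for Il18, decided the sign, since the difference of 0.32 ± 0.58 (SE) was -0.37 without it. The Casp4 difference was 0.01 ± 0.35 (SE) and the Nlrp3 difference -0.13 ± 0.22 (SE).

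The same mice ordered the macrophage markers in muscle. The mean of the 10 markers was -1.05, 0.51 and -0.06 in the KI muscles and 0.09, -1.50 and -0.22 in the WT muscles, highest in mouse B and lowest in mice E and A. Itgam, 1 of the 10, did not follow that order and was lowest in mouse B (5.47) and highest in mouse D (6.55). The mean of the 7 neutrophil markers was 2 in the muscles of KI mouse B and WT mouse D and between -4.79 and -3.97 in the other 4. Il1b was highest in the same pair of muscles, at -4.23 and -3.96, and was between -6.44 and -5.90 in the other 4, but only the value of mouse B was well above background, so Il1b was not tested. Whether these cells account for the spread was not tested. Of the 6 members tested in muscle, 0 passed after adjustment and 0 had an unadjusted p under 0.05, against 0% and 0.851% of 13516 genes. Groups did not overlap, with KI higher, for 0 of the 6 members and 2.17% of all genes, and the mean was higher in KI for 5 of the 6 and 54.8% of all genes.

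**Figure D3:**
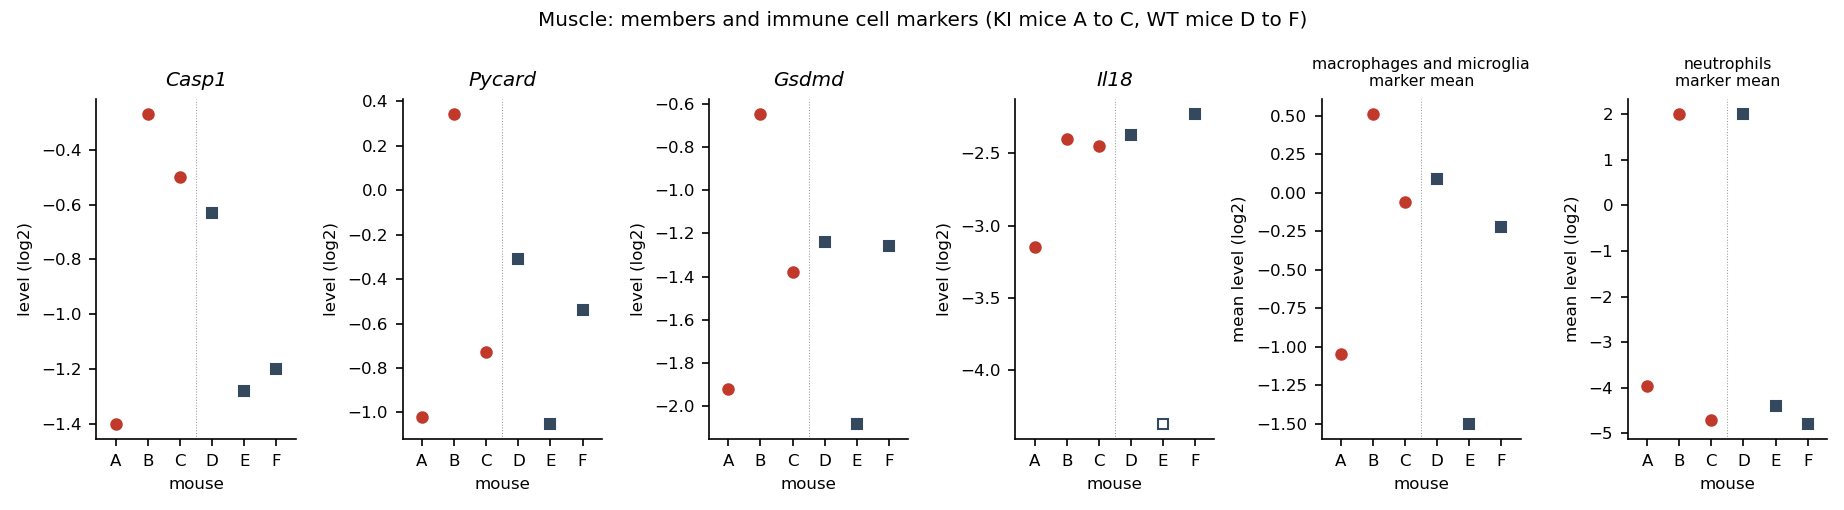
Levels of Casp1, Pycard, Gsdmd and Il18 and mean levels of 10 macrophage and microglia and 7 neutrophil markers in the muscle of each mouse (x axis, KI mice A to C as circles, WT mice D to F as squares), on a log2 y axis with 0 at the array's 75th percentile, with an open symbol where the probe was not well above background. KI mouse B is highest for Casp1, Pycard, Gsdmd and the macrophage markers, and WT mouse E is lowest or next to lowest in these panels.

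**Figure D4:**
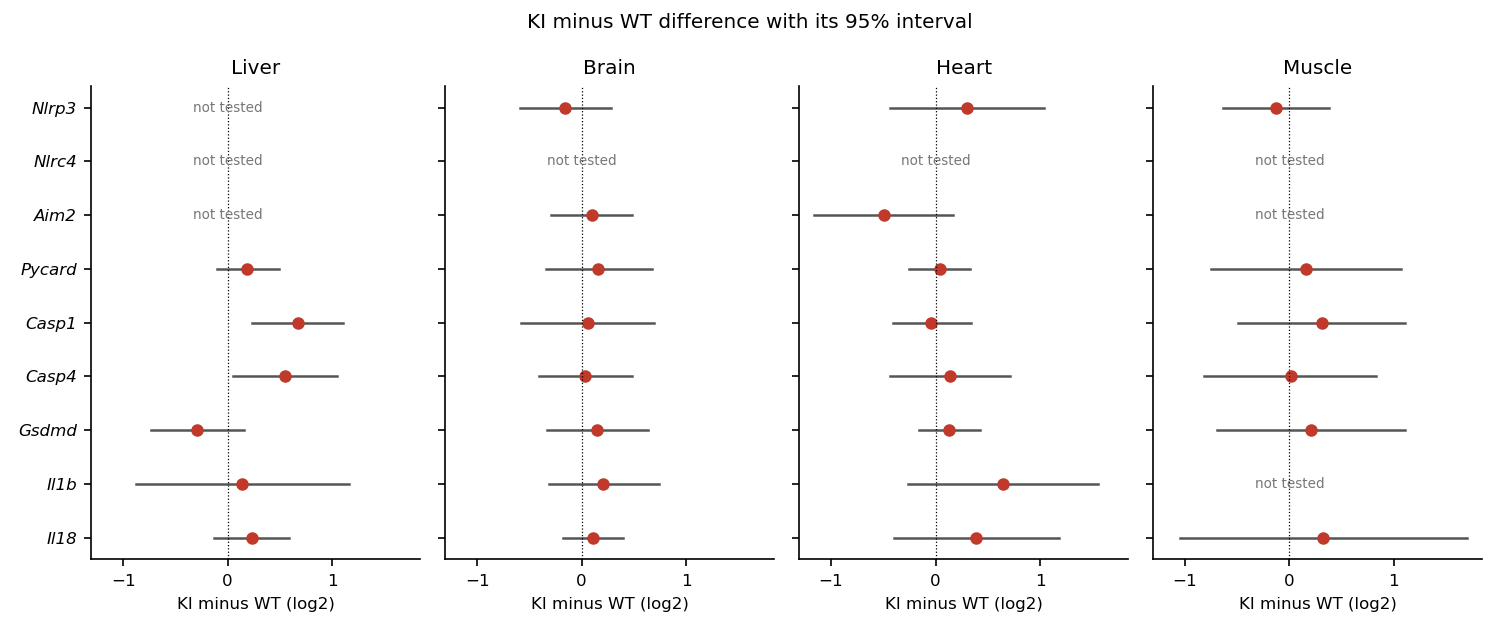
KI minus WT difference (x axis, log2) of each member tested in liver, brain, heart and muscle, with points for the estimate and lines for its 95% interval. The intervals leave out 0 for Casp1 (0.23 to 1.10) and Casp4 (0.05 to 1.05) in liver and hold it elsewhere, and Il18 in muscle has the widest, from -1.05 to 1.70.

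Averaged over the 4 tissues of each mouse, Casp1 was -0.16, 0.00 and 0.03 in the KI mice and -0.24, -0.39 and -0.25 in the WT mice. All 3 KI means were above all WT means, and the difference was 0.25 ± 0.09 (SE), with an interval from 0.03 to 0.48 (adjusted p = 0.983). The mean holds the liver values already given and is not separate evidence. Il18 differed by 0.26 ± 0.16 (SE), Il1b by 0.28 ± 0.31 (SE), Casp4 by 0.18 ± 0.14 (SE) and Pycard by 0.14 ± 0.14 (SE). Of the 8 members tested, 0 passed after adjustment and 1, Casp1, had an unadjusted p under 0.05, where 0% and 3.47% of 17299 genes did. Casp1 was the 1 member without overlap (4.53% of all genes, KI higher). A test of whether the genotype difference varied between tissues was passed by 0 of the 8 members after adjustment, with adjusted p of 1 for each, and 0 had an unadjusted p under 0.05, against 0% and 1.86% of all genes. The liver difference of Casp1 was therefore not shown to differ from that of the other tissues.

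Of 42 further genes of the pathway, 37 could be tested in the livers, 35 in the brains, 35 in the hearts and 29 in the muscles, and 0 passed after adjustment by limma in any of these. An unadjusted p under 0.05 was found for 9 of the 37 in liver (11.7% of all genes there) and for 0 in each of the remaining tissues. The median difference was 0.08 in liver, 0.03 in heart and 0.10 in both brain and muscle. In liver, 8 of the 37 were higher and 3 lower in every KI mouse than in every WT mouse, against 12.2% and 7.5% of all genes. The smallest p-values in liver were those of Tlr4, the cell surface receptor for lipopolysaccharide, higher by 0.60 ± 0.13 (SE, adjusted p = 0.358), of Gbp5, a guanylate-binding protein that promotes NLRP3 assembly, higher by 0.63 ± 0.20 (SE, adjusted p = 0.402), and of Tlr2, a receptor for bacterial lipoproteins, higher by 0.57 ± 0.19 (SE, adjusted p = 0.402). By role, 11 of 14 sensors and partners had a higher mean in KI livers, 4 of 5 caspases and pore formers, 3 of 8 genes of the interleukin 1 family and 5 of 10 genes of signalling and inhibition, against 55.9% of all genes. In brain the smallest p-values were those of Nlrp1b (0.65 ± 0.34, SE), Il1rap (0.44 ± 0.28, SE) and Nfkbia (-0.21 ± 0.14, SE), with adjusted p of 1 for each. In heart, Zbp1 (0.46 ± 0.31, SE) and Rela (-0.20 ± 0.15, SE) were among the 3 with the smallest p-values, with adjusted p of 0.971 for each. In muscle they were those of Panx1 (0.54 ± 0.27, SE), Serpinb1a (0.39 ± 0.20, SE) and Il1rl1 (1.06 ± 0.58, SE), with adjusted p of 1 for each.

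The genes whose levels followed each member most closely over the 24 arrays were found among 15349 genes well above background on at least 12 arrays, by Pearson's r as a description. The points share 6 mice and 4 tissues, so r mostly reflects the order of the tissues. Gsdmd was most like Ifitm3 (r = 0.994) and Psmb9 (r = 0.994), both induced by interferon, and Ccl9 (r = 0.993), a chemokine. Casp4 was most like Gimap5 (r = 0.981), Eva1b (r = 0.98) and Nod1 (r = 0.979). For Il1b, Spata13 (r = 0.966) and Gm4788 (r = 0.957) were among the 3 closest. Il18 was most like Nectin1 (r = 0.983), Pramel25 (r = 0.981) and Camk1d (r = 0.98). Pycard was most like Plcg2 (r = 0.962), a phospholipase of immune receptor signalling, then Bri3bp (r = 0.956) and Hmgb3 (r = 0.954). Casp1 was most like Abracl (r = 0.911), Kcnk6 (r = 0.907) and, as for Pycard, Plcg2 (r = 0.903). For the sensors Aim2 and Nlrp3 the closest genes had lower values, at most 0.882 for Aim2 (Dnaaf3 and Ahrr, then Ezr at 0.881) and 0.758 for Nlrp3 (4933432I09Rik, then 4930474G06Rik at 0.743 and Foxi1 at 0.736). Among the members, Gsdmd and Il1b followed each other over the 24 arrays with r = 0.93 and Pycard and Casp1 with r = 0.87, while Casp4 and Il18 ran against each other with r = -0.51. After each array was set against the mean of its group, the deviations of Casp4 and Il18 ran together with r = 0.67, those of Pycard and Gsdmd with r = 0.76 and those of Casp4 and Il1b with r = 0.76. The deviations of the macrophage marker mean followed those of Il18 with r = 0.83, of Gsdmd with r = 0.78 and of Pycard with r = 0.74. For Casp1 r was 0.66, for Casp4 0.64, for Il1b 0.58, for Aim2 0.31, for Nlrp3 -0.01 and for Nlrc4 -0.41. Arrays of all tissues were pooled, and the macrophage mean spread most in muscle (SD 0.79 in KI, 0.84 in WT) and least in brain (0.07 and 0.02). The muscles therefore weigh most in these r, among them that of WT mouse E, not well above background for Il18. Il1b was well above background in 1 of 6 muscles, and its highest muscle level, -3.96 in WT mouse D, was not. Each r with Il1b thus holds values near background. No r was taken within a single tissue.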

How the data were processed

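Per the labels, Cy3-labelled RNA of each sample was read on an array of its own. The deposited intensity is the processed signal of Agilent Feature Extraction, in which background and spatial trends were already corrected and arrays were not yet normalized to each other. The authors also deposited a score table, which matched z-scores computed per array from the log signal (largest difference 0.005) and served as an alternative only. For normexp background correction (offset 50) the deposited median intensities of spot and background were taken.

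Control and outlier spots were left out, spots of the same probe were averaged, and the log2 value at the 75th percentile was subtracted per array. Probes were named through RefSeq accessions (GRCm38.p6, from which names and the order of genes were taken), which named 50.9% of 55681 probes, and the brightest probe stood for a gene. Between genotypes, a gene was tested if all 3 arrays of either genotype were well above background in that tissue. Between tissues, all 6 arrays of at least 1 tissue had to be. Fits used limma 3.58.1 (R 4.3.3, lmFit and eBayes, two-sided tests) with Benjamini-Hochberg adjustment over all genes and a threshold of 0.05, per tissue for genotypes and over the 24 arrays for tissues. A bound on a fold took the lowest level well above background on each dim array. The fits were tested on simulated data. An exact permutation test of 3 against 3 cannot give a p below 0.1, so none is given, and the number of arrays limits the precision.

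The same 6 mice gave all tissues. Deviations from the group means correlated over 17299 genes by 0.0134 between arrays of the same mouse and by -0.0061 between other mice of the genotype. Deviations cancel out within a group, so the second value largely follows from the first and is no separate baseline. The consensus correlation with the mouse as a block was -0.00127. Brains and hearts of both genotypes shared slides, while livers and muscles each lay on 1 slide.

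The members and lists, including the 42 further genes, were chosen with earlier results of these data known. All members were named, with at most 3 further genes per comparison of KI and WT (smallest unadjusted p) and 3 genes of highest Pearson's r per member with at least 12 arrays well above background, and 2 genes that this rule names are not reported here. Alternatives covered normalization, background correction, the score table, the filter, the probe, the slide, the mouse as a block and leaving out each mouse.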

Additional observations from a re-analysis of the deposited data

How the results depend on the processing

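For KI against WT, 0 members were called under every alternative run, and of the single values 405 kept their sign and 34 turned. With the 24 arrays in 1 fit, 5 genes of the whole table were called in liver, none of them a member, with no block and with a replicate block for the mouse, where the fit of the livers alone called 0. The genotypes share no mouse, so the block pairs tissues only, and it changed no call of a member between KI and WT. Under normexp the difference was 0.01 in brain, 0.09 in muscle and 0.06 over the tissue mean for Nlrp3, -0.05 in heart for Pycard and -0.02 in muscle for Casp4. With the deposited scores (z units) it was -0.01 for Aim2 and -0.02 for Casp4 in brain and -0.0033 for Casp4 in muscle. With its other probe, Nlrp3 differed by -0.03 in heart and 0.32 in muscle.

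When each mouse was left out in turn, the difference ranged from -0.23 to 0.48 for Il1b and from 0.33 to 0.68 for Casp4 in liver. In brain it ranged from -0.02 to 0.19 for Aim2, -0.18 to 0.31 for Casp1, -0.11 to 0.16 for Casp4 and -0.02 to 0.32 for Gsdmd. In heart it ranged from -0.14 to 0.07 for Casp1, -0.12 to 0.32 for Casp4, -0.0045 to 0.6 for Il18, -0.05 to 0.59 for Nlrp3 and -0.01 to 0.1 for Pycard. In muscle it ranged from -0.3 to 0.38 for Casp4, -0.12 to 0.51 for Gsdmd, -0.37 to 0.7 for Il18 and -0.24 to 0.43 for Pycard. Over the tissue mean it ranged from -0.07 to 0.17 for Gsdmd and from -0.0037 to 0.22 for Pycard. Between tissues, liver minus brain ranged from -0.09 to 0.23 for Nlrp3 and liver minus muscle from -0.24 to 0.06 for Casp4.

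Between tissues, 568 single values kept their sign and call, 17 passed where they had not, 35 no longer passed and 16 turned. In the WT arrays alone, 3 members were called between liver and brain instead of 6. Normexp turned Aim2 to 0.6 for liver minus brain, -0.4 for liver minus muscle, -1 for brain minus muscle and -0.15 for heart minus muscle, Il1b to -1.19 for brain minus muscle, and Il18 to -0.15 and Nlrp3 to -0.41 for heart minus muscle. Of these turned differences, those of Aim2 and Il18 between heart and muscle did not pass by limma. The others passed in the turned direction, brain minus muscle with adjusted p = 3.81e-06 for Aim2 and 3.79e-05 for Il1b. Nlrp3 turned to 0.36 for liver minus heart and 0.55 for liver minus muscle with its other probe, and to 0.07 for the latter with quantile normalization. Chosen after seeing the data, the slide as a block turned Il1b to -0.32 for brain minus muscle and Nlrp3 to -0.2 for heart minus muscle, and leaving out the 3 libraries with transcripts of another tissue turned Casp4 to 0.00037 for liver minus muscle. The cause of these changes was not tested. Signal close to background limits Nlrp3, Aim2, Nlrc4 and, in brain and muscle, Il1b.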
